A study of Homo sapiens with 8 samples.

Results

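The genes of the mitochondrial protein import machinery were read at the RNA level in MDA-MB-231 cells, a human triple-negative breast cancer line, after treatment with a triphenylphosphonium compound and UV-A light. The members were the protein-coding genes named TOMM or TIMM followed by a number, together with SAMM50, MTX1, MTX2, MTX3, PMPCA, PMPCB, GRPEL1, GRPEL2, DNAJC19 and PAM16. They were 34 of 21304 protein-coding gene names, and the rule takes gene names alone. 30 of them could be tested. TOMM5 and TOMM20L stayed under the level filter, TOMM6 was listed at 0 in all 8 libraries, and TIMM23 carried a different identifier in each round of the experiment.

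The 8 libraries fell into 6 groups. Cells with 1-SO, (5-oxo-2-dibenzothienylmethyl)triphenylphosphonium, gave 1 library under UV-A and 1 in the dark. Cells with 1-S, which the title of the series names without the oxo group, likewise gave 1 library under UV-A and 1 in the dark. Vehicle cells (VC, 1% DMSO) gave 2 libraries under UV-A and 2 in the dark, 1 per round. Compounds were given at 10 µM for 24 h, and UV-A (325 to 375 nm) lasted 30 min under 8 bulbs. All 1-SO libraries came from round 1 (passage 8) and all 1-S libraries from round 2 (passages 32 to 34), each beside its own vehicle pair. Compound, round and passage therefore cannot be told apart when 1-SO is set against 1-S. Irradiated and dark cells were on separate plates, so light and plate cannot be told apart either. No compound group had a replicate library, and nothing in the labels says that the vehicle libraries came from separate cultures, so p-values measure only the spread between vehicle libraries.

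Nearly all mitochondrial proteins are made in the cytosol and imported. Precursors pass the outer membrane through the TOM complex, whose pore is TOMM40, with TOMM20, TOMM22 and TOMM70A as receptors. Barrel proteins are then inserted by the SAM complex around SAMM50, helped by metaxins. Small TIM chaperones carry hydrophobic precursors across the intermembrane space to TIMM22, the carrier channel. Precursors with a cleavable presequence go through the TIM23 translocase, are pulled in by a motor driven by the mitochondrial HSP70, HSPA9, and are cut by the peptidase of PMPCA and PMPCB. Triphenylphosphonium is a lipophilic cation that is used to carry molecules into mitochondria.

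The start regions of 6 members are printed because the first 5 are among the 6 that fell with 1-S in the dark, and the sixth, MTX3, rose with 1-SO under UV-A. Each run is the 150 bases before the annotated start in RefSeq (GRCh38.p14), read 5′ to 3′ on the gene's strand. TOMM40 lies at chr19:44891104-44891253 on the plus strand, TOMM7 at chr7:22822850-22822999 on the minus strand and SAMM50 at chr22:43955292-43955441 on the plus strand. TIMM13 lies at chr19:2427587-2427736 on the minus strand, TIMM21 at chr18:74148373-74148522 on the plus strand and MTX3 at chr5:79991263-79991412 on the minus strand. Capitals mark a CCAAT box in TOMM40 and SAMM50, an NRF1 motif in TOMM7 and an ETS motif in TIMM13 and MTX3.
TOMM40: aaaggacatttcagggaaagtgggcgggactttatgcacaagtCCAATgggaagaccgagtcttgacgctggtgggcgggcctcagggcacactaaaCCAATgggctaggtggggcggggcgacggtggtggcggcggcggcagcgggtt
TOMM7: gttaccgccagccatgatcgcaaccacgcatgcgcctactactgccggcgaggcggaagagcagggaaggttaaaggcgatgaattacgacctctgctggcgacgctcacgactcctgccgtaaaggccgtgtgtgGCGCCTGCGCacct
SAMM50: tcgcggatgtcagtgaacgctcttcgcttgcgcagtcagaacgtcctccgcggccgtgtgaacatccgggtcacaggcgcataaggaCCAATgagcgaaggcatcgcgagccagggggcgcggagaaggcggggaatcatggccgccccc
TIMM13: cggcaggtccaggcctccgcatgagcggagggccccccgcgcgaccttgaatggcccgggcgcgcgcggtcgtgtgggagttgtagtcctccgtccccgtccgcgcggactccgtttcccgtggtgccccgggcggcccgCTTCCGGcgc
TIMM21: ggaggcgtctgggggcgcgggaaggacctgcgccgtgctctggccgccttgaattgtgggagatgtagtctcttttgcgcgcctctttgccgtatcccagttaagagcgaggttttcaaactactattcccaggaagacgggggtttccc
MTX3: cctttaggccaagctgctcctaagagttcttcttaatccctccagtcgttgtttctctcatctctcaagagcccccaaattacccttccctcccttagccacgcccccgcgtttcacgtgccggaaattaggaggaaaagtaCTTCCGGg

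No motif searched was in all 5 printed start regions of members that fell with 1-S in the dark. Among 31 members with an entry in the RefSeq table, 11 (35.5%) held the ETS motif CCGGAAG, against 7.18% of 27305 promoters of the same length. The NRF1 motif, GCGCA followed by any base and GCGC, was in 4 members (12.9%, against 4.72% of all promoters) and CCAAT in 8 (25.8%, against 24.4%). TGATGNAA, the form bound by ATF4 with C/EBP factors, was in 1 member, TIMM22 (3.23%, against 1.93%). The heat shock element GAANNTTC was in 0 members (0.0%, against 3.25%). Both strands were searched, and no motif contains another. The 27305 promoters were not matched to the members by RNA level or base content, so these shares do not show a trait particular to import genes. TIMM23 and TIMM23B, near-identical copies, were counted separately among the members with the ETS motif. Such matches describe letters in a window and not bound sites, and a missing match says only that the letters are not in that window.

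Library totals ran from 15.8 to 22.6 M reads, so that 3 reads, the limit that a count of 0 allows, equal 0.133 to 0.19 CPM (reads scaled to the library total). Levels are given as FPKM, that is reads scaled by gene length and by library total, which the authors made separately in each round with different gene lengths, so levels are set side by side only within a round. Of the line's own genes, VIM (219 to 317 FPKM), AXL, CD44, EGFR, MET and CAV1 had at least 20.0 FPKM in all 8 libraries. ESR1, PGR, CDH1, KRT5 and the leukocyte gene PTPRC were at or below 0.14 FPKM, and the endothelial gene PECAM1 had at most 0.411 FPKM in round 2. ERBB2 (9.78 to 29.2 FPKM) and EPCAM (2.25 to 5.57 FPKM) were measurable, though the marker list had them as low or absent. In bulk RNA, fewer cells with a transcript and less of it per cell cannot be told apart.

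TOMM34, a cytosolic co-chaperone of precursors, had the highest level of any member in every library, at 108 to 121 FPKM in round 1 and 77.8 to 117 FPKM in round 2. TOMM20 followed in the round 1 libraries at 70.1 to 80.4 FPKM. At the low end of the tested members, PAM16, a regulator of the import motor, had 14 to 31 reads in a library. Exons of CORO7-PAM16 cover 21.9% of its exonic bases on the same strand, so its level is uncertain to that extent. TIMM23B had 6 to 28 reads in round 1 and 195 to 234 reads in round 2. The receptors and pores spread widely, TOMM40L reaching only 3.13 to 5.93 FPKM while TOMM40 had 38.2 to 65.7 FPKM over all 8 libraries.

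With 1-S in the dark, 6 of the 30 tested members fell against vehicle in the dark and 0 rose. They came from several layers of the pathway: TOMM40 and TOMM7 of the outer pore, SAMM50 of the barrel insertase, the small TIMs TIMM13 and TIMM8B, and TIMM21 of the inner translocase. The test was edgeR's quasi-likelihood test on the read counts of all 8 libraries, adjusted over 12696 genes by Benjamini-Hochberg and called at 0.05. The members' share called, 20.0%, lay below the 30.9% of all genes called. The share that fell, again 20.0%, was near the 15.0% of all genes that fell, and is no result about the members. No member rose, whereas 15.9% of all genes did. The median change of the members was -0.20 on the log2 scale, against 0.00 for all genes tested. DESeq2 with the same terms called 0 members here, where it called 1587 of 12696 genes, and 0 members in every other comparison. The share of reads from the 13 mRNAs encoded in the mitochondrial genome moved with 1-S, at 1.77% with 1-S in the dark and 1.4% with 1-S under UV-A, against 2.38% in dark vehicle and 2.42% in UV-A vehicle of round 2. Its part in the members' changes was not tested.

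TOMM40, the pore, had 38.2 FPKM with 1-S in the dark and 41.1 FPKM with 1-S under UV-A, against 50.9 FPKM in dark vehicle and 61.0 FPKM in UV-A vehicle of the same round. Both 1-S libraries were below both vehicle libraries. Its fitted log2 change in the dark was -0.67 ± 0.21 (SE), with an edgeR adjusted p of 0.019. TOMM7, a small subunit of the TOM complex, had 14.3 FPKM with 1-S in the dark and 19.4 FPKM with 1-S under UV-A, against 20.4 FPKM in dark vehicle and 20.7 FPKM in UV-A vehicle. Its dark 1-S library stood apart from the other 3. The log2 change in the dark was -0.67 ± 0.22 (edgeR adjusted p = 0.023). Of the receptors, TOMM20 had a log2 change of -0.38 ± 0.19, TOMM22 of -0.21 ± 0.20 and TOMM70A of -0.20 ± 0.18, none of which passed the test. Without the dark vehicle library of round 2 TOMM20 was at -0.58 and TOMM22 at -0.55. Leaving out any 1 of the other 3 vehicle libraries returns the ratio to that dark vehicle by construction, -0.10 for TOMM22.

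SAMM50, the core of the barrel insertase, had 3.88 FPKM with 1-S in the dark and 4.83 FPKM with 1-S under UV-A, against 5.45 FPKM in dark vehicle and 5.47 FPKM in UV-A vehicle. The vehicle libraries were nearly equal, and both 1-S libraries lay below them. The log2 change in the dark was -0.58 ± 0.22 (edgeR adjusted p = 0.044). The metaxins MTX1, MTX2 and MTX3, partners of SAMM50, lay between -0.14 and 0.06 and did not pass.

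Of the 6 small TIM chaperones 2 fell with 1-S in the dark, 33.3% against the 15.0% of all genes that fell. All 6 had a log2 change below 0 in the fit of all libraries, with a median of -0.65. Against the dark vehicle of round 2 alone 5 of 6 were below 0, with a median of -0.47, and 0 passed edgeR's likelihood ratio test. TIMM13 had 15.6 FPKM with 1-S in the dark and 16.0 FPKM with 1-S under UV-A, against 20.6 FPKM in dark vehicle and 26.5 FPKM in UV-A vehicle. TIMM8B had 13.1 FPKM with 1-S in the dark and 16.0 FPKM with 1-S under UV-A, against 18.1 FPKM in dark vehicle and 20.2 FPKM in UV-A vehicle. In both genes the 1-S libraries were below the vehicle libraries. The log2 changes in the dark were -0.73 ± 0.25 for TIMM13 and -0.70 ± 0.26 for TIMM8B, with edgeR adjusted p of 0.029 and 0.043 in that order. TIMM8A, which TIMM13 pairs with in the intermembrane space, had -0.72 ± 0.28 and missed the threshold (edgeR adjusted p = 0.051). Exons of other genes cover 28.9% of the exonic bases of TIMM13 (LMNB2 and TMPRSS9) and 32.3% of those of TIMM8B (SDHD and NKAPD1, on the other strand), and the labels do not say whether counting took account of strand. The values of these genes are uncertain to that extent.

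TIMM21, a subunit that links the TIM23 translocase to the TOM complex, had 4.14 FPKM with 1-S in the dark and 4.55 FPKM with 1-S under UV-A, against 6.48 FPKM in dark vehicle and 6.81 FPKM in UV-A vehicle. Both 1-S libraries were below both vehicle libraries by a clear gap. The log2 change in the dark was -0.80 ± 0.24 (edgeR adjusted p = 0.011). TIMM50, the presequence receptor of the inner membrane, had only -0.30 ± 0.18 and did not pass. TIMM22, the carrier channel, had 0.08 ± 0.21. In the motor, TIMM44, the anchor of HSPA9, had 0.38 ± 0.18 (edgeR adjusted p = 0.11). PMPCB, the catalytic peptidase subunit, had -0.28 ± 0.19 and did not pass.

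These calls depend on how vehicle is taken. The model fits 1 light response for the vehicle cells of both rounds, and in these members the rounds had opposite signs: TIMM13 changed by -0.71 ± 0.28 with UV-A in vehicle of round 1 and by 0.39 ± 0.27 in vehicle of round 2, and TOMM40 by -0.52 ± 0.24 and 0.28 ± 0.24 in the same order of rounds. When 1-S in the dark was set against the dark vehicle of round 2 alone, by edgeR's likelihood ratio test with the same dispersions, only TIMM21 of the 30 members passed (log2 change -0.69, adjusted p = 0.039), against 26.0% of all genes. The other 5 kept their sign, with log2 changes of -0.56 for TOMM7, -0.53 for SAMM50, -0.51 for TIMM8B, -0.46 for TOMM40 and -0.43 for TIMM13. Without the dark vehicle library of round 2, whose level the model then infers, TIMM13 was at -1.53, TOMM40 at -1.26, TIMM8B at -1.21 and TOMM7 at -1.01. Leaving out any 1 of the other 3 vehicle libraries returns the ratio to the dark vehicle of round 2 by construction, -0.43 for TIMM13.

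**Figure D1:**
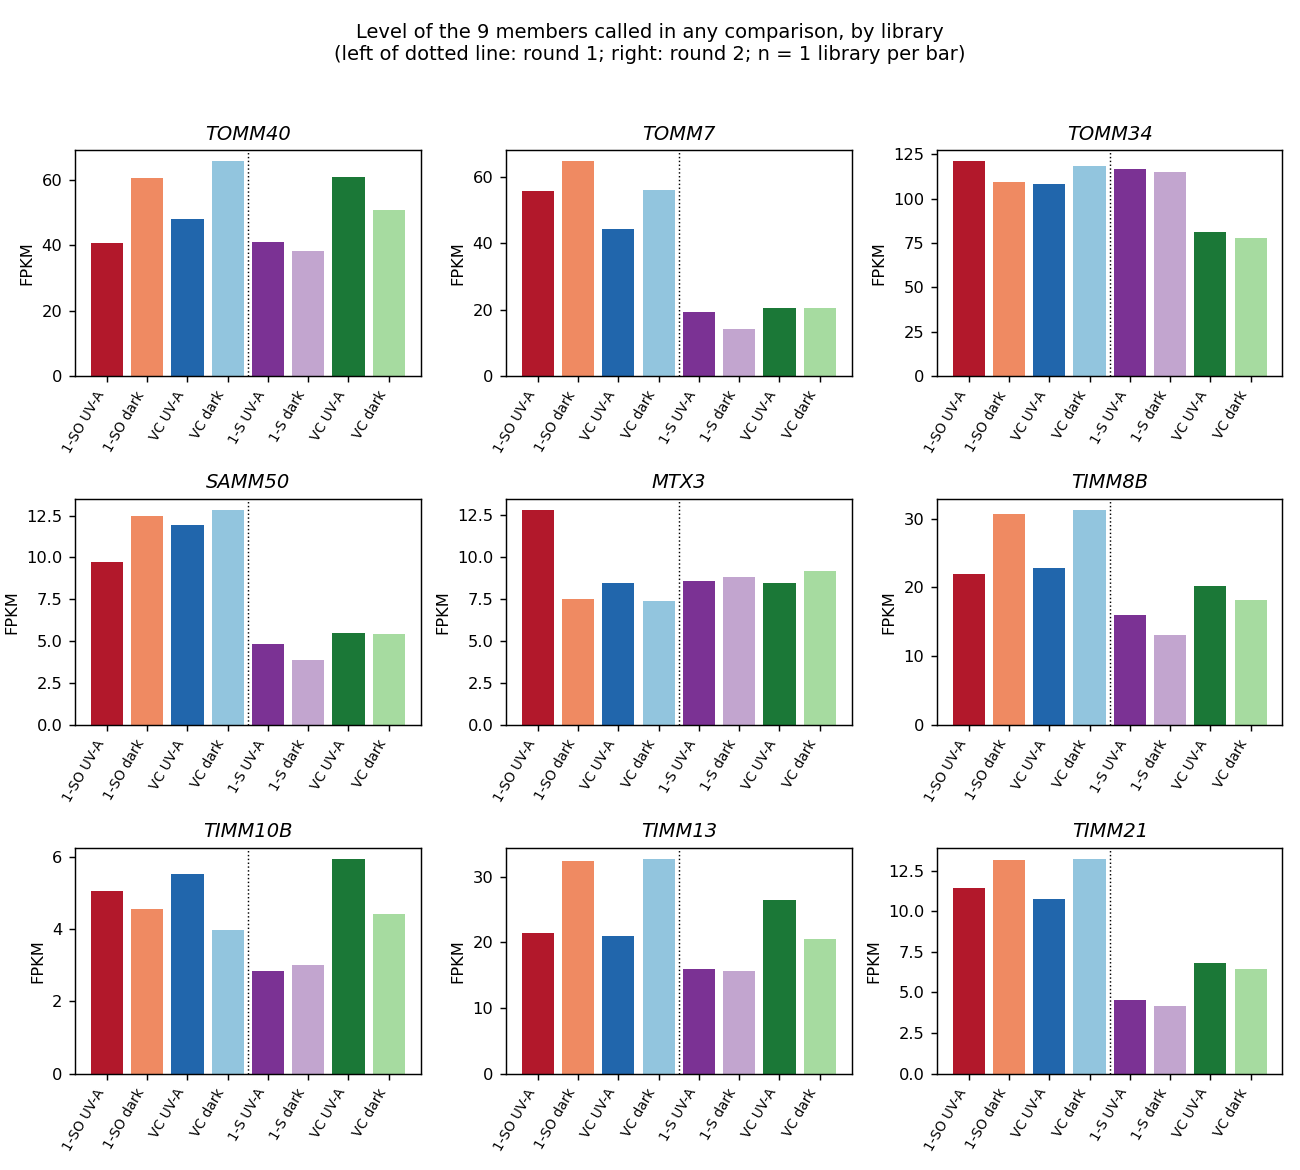
FPKM of the 9 members that passed the edgeR test in any comparison, with 1 bar per library (n = 1 each) and axes that start at 0. Bars left of the dotted line are from round 1 and bars to the right from round 2. In round 2, TOMM40, TIMM13 and TIMM21 were lower in both 1-S libraries than in both vehicle libraries, and in round 1 MTX3 was highest in the 1-SO UV-A library at 12.8 FPKM.

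With 1-S under UV-A, 1 member rose and 1 fell against vehicle under UV-A by edgeR's test, 6.67% of the members, against 27.5% of all genes. TIMM10B, a small TIM chaperone bound to the TIM22 complex, had 2.85 FPKM with 1-S under UV-A and 3.0 FPKM with 1-S in the dark, against 5.96 FPKM in UV-A vehicle and 4.42 FPKM in dark vehicle. Both 1-S libraries were below both vehicle libraries, and these levels rest on 165 and 199 reads with 1-S and on 394 and 303 reads with vehicle, in the same order of light. The log2 change under UV-A was -1.12 ± 0.29 (edgeR adjusted p = 0.0053), the lowest among the members in any comparison with vehicle. It was -1.13 against the vehicle of round 2 alone (edgeR likelihood ratio test, adjusted p = 0.002). Exons of ARFIP2 and a transcript named AC084337.2 cover 14.6% of its exonic bases. In vehicle cells TIMM10B had a light response of 0.43 ± 0.21 that did not pass, with 0.41 in round 1 and 0.45 in round 2.

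TOMM34 had 117 FPKM with 1-S under UV-A and 115 FPKM with 1-S in the dark, against 81.2 FPKM in UV-A vehicle and 77.8 FPKM in dark vehicle. The 1-S libraries lay well above the vehicle libraries of their round. Its log2 change under UV-A was 0.52 ± 0.19 (edgeR adjusted p = 0.035). In the dark it was 0.45 ± 0.19 (edgeR adjusted p = 0.069). Against the vehicle of round 2 alone the adjusted p under UV-A was 0.097 by edgeR's likelihood ratio test.

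Set against the UV-A vehicle of round 2 alone, 4 of 30 members fell with 1-S under UV-A and 0 rose, 13.3% by edgeR's likelihood ratio test. Of all 12696 genes, 1856 fell and 1864 rose by that test, 29.3% in all. The share that fell is no result about the members. Beside TIMM10B the members that fell were TIMM13 at -0.79 (adjusted p = 0.019), TOMM40 at -0.64 (adjusted p = 0.029) and TIMM21 at -0.65 (adjusted p = 0.048). In the fit of all libraries TIMM13 had -0.55 ± 0.24, TIMM21 -0.54 ± 0.23 and TOMM40 -0.45 ± 0.21, and none of these passed. With UV-A in cells with 1-S 0 of 30 members passed, beside 0.0% of all genes by edgeR's test, and 1 had an unadjusted p under 0.05 (2.42% of all genes did), TIMM9 at 0.70 ± 0.29. By DESeq2 0 members passed as well.

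Over both light conditions of round 2, both 1-S libraries lay beyond both vehicle libraries for 20 of the 30 tested members by FPKM, 66.7%, against 78.2% of all genes tested. 13 of these members were lower, 43.3% against 35.5% of all genes, and 7 were higher, 23.3% against 42.8%. The lower ones held TOMM20, TOMM22, TOMM40, TOMM7 and TOMM70A of the TOM complex, 4 of the 6 small TIMs, SAMM50, TIMM21, TIMM50 and PMPCB. The higher ones held GRPEL1, GRPEL2 and TIMM44 of the motor, TIMM17A, TIMM22, MTX2 and TOMM34. A plain count of this kind has no error term.

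**Figure D2:**
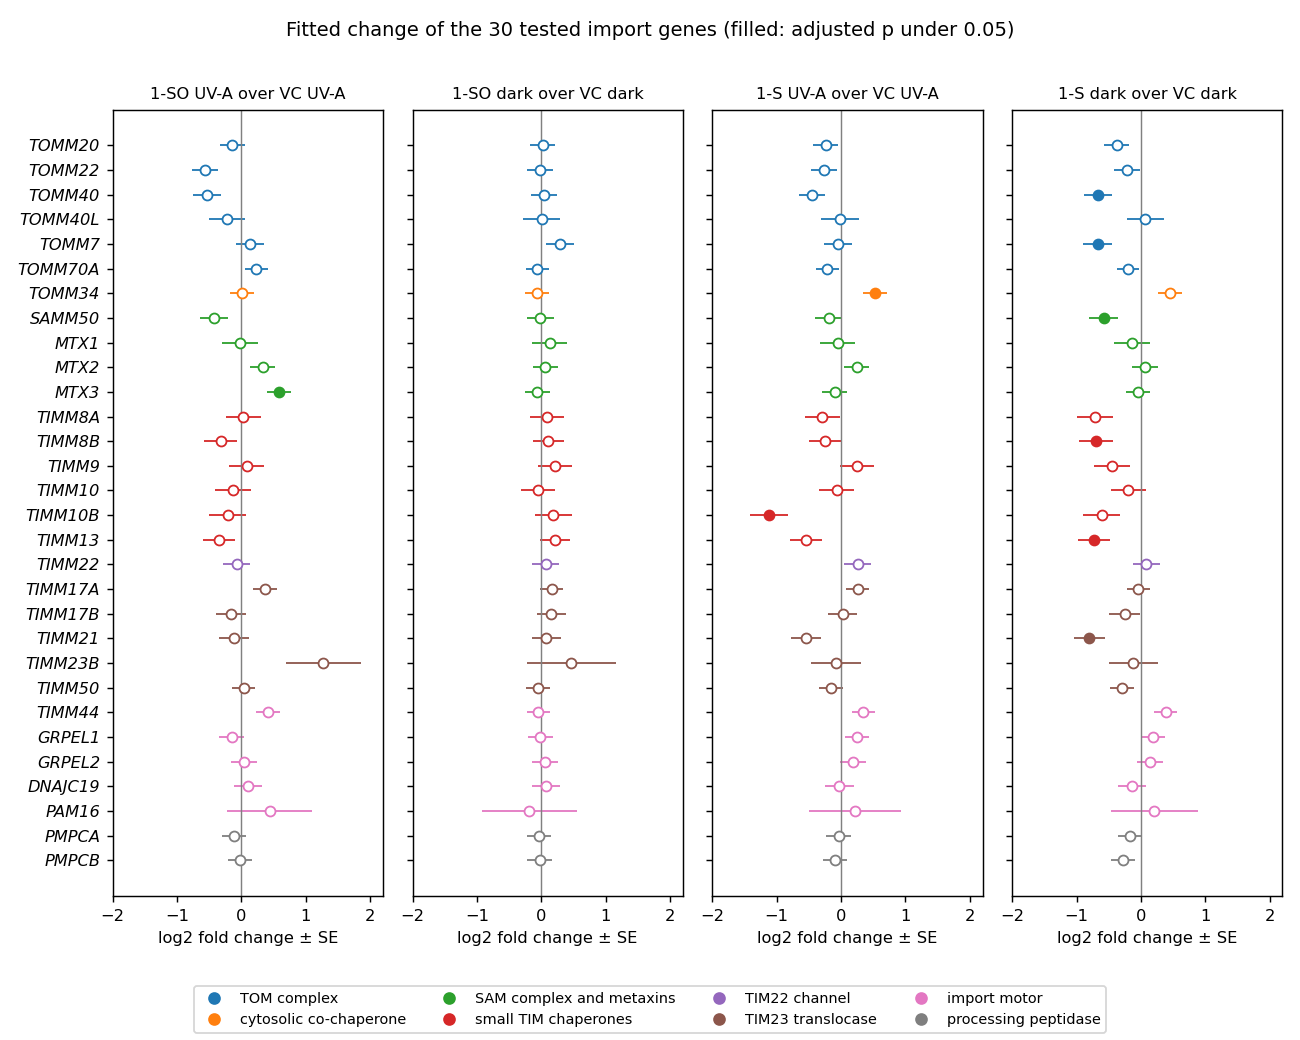
Fitted log2 fold change with its SE for each of the 30 tested members in 4 comparisons of a compound with vehicle under the same light, coloured by role. Filled points had an edgeR adjusted p under 0.05. Filled points lie at or beyond 0.52 in size, and 6 of the 9 filled points are in the panel of 1-S in the dark, all of them below 0.

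With 1-SO under UV-A, MTX3 was the only member to pass against vehicle under UV-A by edgeR's test: 1 of 30 rose, 3.33%, and 0 fell, against 4.47% of all genes that rose and 7.04% that fell, 11.5% in all. MTX3, a metaxin of the outer membrane, had 12.8 FPKM with 1-SO under UV-A and 7.47 FPKM with 1-SO in the dark, against 8.42 FPKM in UV-A vehicle and 7.37 FPKM in dark vehicle. The irradiated 1-SO library stood above the other 3. The log2 change against UV-A vehicle was 0.58 ± 0.19 (edgeR adjusted p = 0.045). That call was not kept against the vehicle of round 1 alone, where the change was 0.52 (edgeR likelihood ratio test, adjusted p = 0.15) and 0 members passed, against 7.92% of all genes. With no round term, that is with no replicate block, the change was 0.08. That setting pools vehicle counts of gene models of unlike length, 4799 bases in round 1 and 7916 in round 2 for MTX3. In round 2, MTX3 spanned 8.46 to 9.17 FPKM over the 4 libraries, with no such rise.

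5 members had an unadjusted p under 0.05 with 1-SO under UV-A, 16.7% against 25.2% of all genes. Besides MTX3 these were TOMM22 at -0.57 ± 0.20, TOMM40 at -0.53 ± 0.21, TIMM44 at 0.41 ± 0.18 and TIMM23B at 1.27 ± 0.58, of which the last rests on 28 reads against 10. Without the UV-A vehicle library of round 1 TOMM22 was at -0.90 and TOMM40 at -1.12. Leaving out any 1 of the other 3 vehicle libraries returns the ratio to that UV-A vehicle by construction, -0.32 for TOMM40. TOMM20, TOMM70A, TIMM22, TIMM50, SAMM50 and PMPCB lay between -0.42 and 0.23 and did not pass. The share of reads from the 13 mRNAs encoded in the mitochondrial genome was lower with 1-SO under UV-A as well, at 0.93% with 1-SO under UV-A and 3.02% with 1-SO in the dark, against 2.76% in UV-A vehicle and 2.58% in dark vehicle. Its part in these changes was not tested either.

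Within cells with 1-SO, MTX3 rose and TOMM40 fell with UV-A, 2 of 30 members or 6.67%, against 14.8% of all genes called by edgeR's test. MTX3 changed by 0.65 ± 0.21 (edgeR adjusted p = 0.033). TOMM40 had 40.7 FPKM with 1-SO under UV-A and 60.6 FPKM with 1-SO in the dark, beside 48.0 FPKM in UV-A vehicle and 65.7 FPKM in dark vehicle. Both irradiated libraries were below both dark ones. The log2 change with UV-A in 1-SO cells was -0.70 ± 0.22 (edgeR adjusted p = 0.032), next to -0.52 ± 0.24 in vehicle of the same round (adjusted p = 0.58). Whether the light response differed between 1-SO and vehicle was not tested. TIMM13 behaved alike in level, with 21.4 FPKM with 1-SO under UV-A and 32.5 FPKM with 1-SO in the dark, beside 21.0 FPKM in UV-A vehicle and 32.8 FPKM in dark vehicle. Its change with UV-A in 1-SO cells, -0.73 ± 0.26, missed the threshold (edgeR adjusted p = 0.058).

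In the dark no member passed edgeR's test with 1-SO: the count was 0 of 30, beside 0.0% of all genes, and 0 had an unadjusted p under 0.05, against 0.205% of all genes. DESeq2 also called 0. The changes ran from -0.19 to 0.47, with a median of 0.05. In round 1, both 1-SO libraries lay beyond both vehicle libraries for 5 members, 16.7% against 20.7% of all genes. All 5 were higher and 0 were lower, against 12.0% and 8.74% of all genes. They were DNAJC19, MTX1, MTX2, TIMM17A and TIMM9, and none of them passed the test in any comparison. With UV-A in vehicle cells 0 of 30 members passed, beside 0.0% of all genes, 0 had an unadjusted p under 0.05, against 2.74% of all genes, and DESeq2 called 0. The fitted changes ran from -0.36 for TIMM8A to 0.43 for TIMM10B. That fit takes 1 light response over both rounds, and the rounds differed. In round 1 alone the changes ran from -0.72 for TIMM8A to 0.91 for TIMM23B (10 reads against 6). Of the 30 members 22 were below 0 there, with a median of -0.19. In round 2 alone they ran from -0.64 for PAM16 (14 reads against 23) to 0.45 for TIMM10B. There 10 were below 0, with a median of 0.04.

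**Figure D3:**
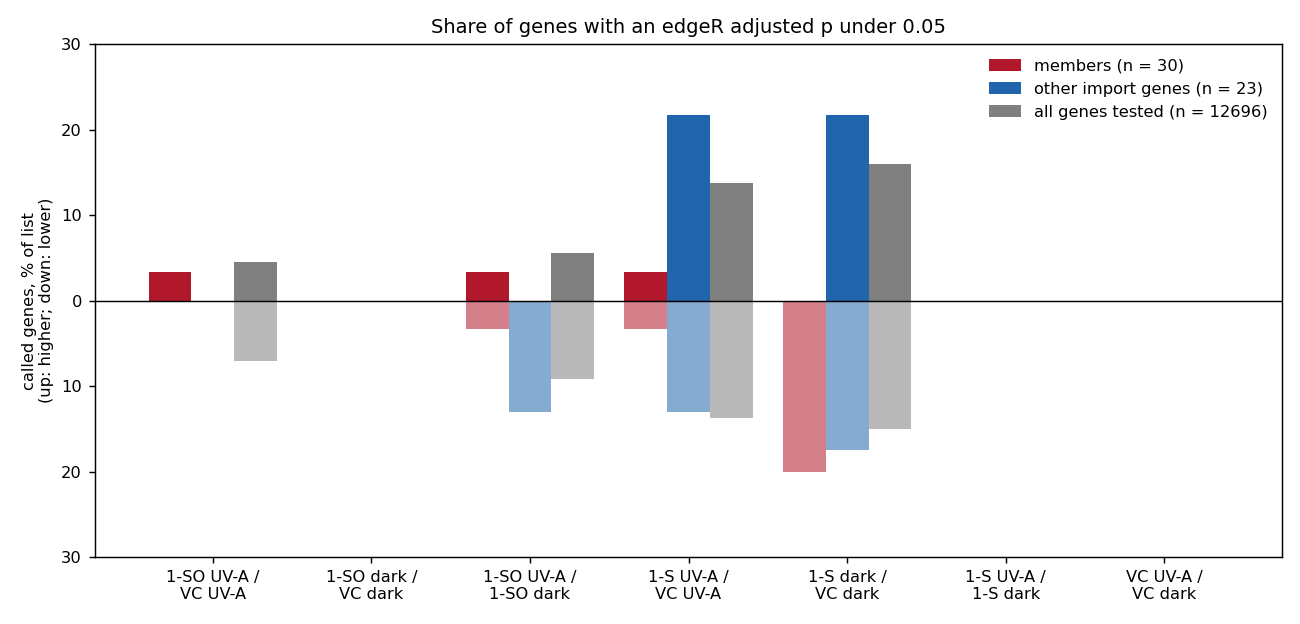
Share of tested genes that passed the edgeR test at 0.05, in percent, upward for higher and downward for lower, for the 30 members, 23 other import genes and all 12696 genes tested. For the members the downward bar of 1-S in the dark, at 20.0%, is the longest, and all genes have 15.0% there.

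The compounds, which differ by the oxo group, were compared at the same dose, time and light, each relative to vehicle. In the dark, 3 of 30 members were higher with 1-SO than with 1-S relative to vehicle and 0 were lower, 10.0% and 0.0% against 8.4% and 8.78% of all genes, 17.2% in all, by edgeR's test. The difference was 0.96 ± 0.28 for TOMM7 (adjusted p = 0.019), 0.94 ± 0.32 for TIMM13 (adjusted p = 0.041) and 0.88 ± 0.30 for TIMM21 (adjusted p = 0.045). For these genes the fitted change with 1-SO in the dark was 0.29 in TOMM7, 0.21 in TIMM13 and 0.08 in TIMM21. Against the dark vehicle of round 1 alone it was 0.18 in TOMM7, -0.035 in TIMM13 and -0.033 in TIMM21. Against each round's own vehicle the differences were 0.74, 0.40 and 0.65 in the order TOMM7, TIMM13 and TIMM21, and 0 members passed, against 8.75% of all genes (edgeR likelihood ratio test). Without 1 dark vehicle library, of either round, the difference of TIMM13 was 1.498. Without 1 UV-A vehicle library it was 0.40, which repeats the difference against each round's own vehicle by construction. The 6 small TIMs had a median difference of 0.80, with 6 of 6 above 0, and of 0.46 against each round's own vehicle, with 5 of 6 above 0. TOMM40 had 0.72 with a 95% interval of 0.16 to 1.28 and an edgeR adjusted p of 0.069.

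Under UV-A, 0 of 30 members differed between the compounds by edgeR's test, against 3.55% of all genes, of which 2.27% were lower with 1-SO. 4 had an unadjusted p under 0.05, 13.3% against 15.0% of all genes. DESeq2 called 0 members, and 134 of 12696 genes. The intervals were wide enough to leave sizeable differences possible: TOMM40 had -0.08 with a 95% interval of -0.64 to 0.48, and TIMM21 had 0.42 with an interval of -0.20 to 1.05. MTX3 had 0.68, with an interval of 0.17 to 1.20 and an edgeR adjusted p of 0.15. TIMM10B had 0.91, with an interval of 0.14 to 1.68 and an edgeR adjusted p of 0.23.

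The sizes of the members' changes stood below those of all genes tested. With 1-S in the dark their median absolute log2 change was 0.24, against 0.43 for all genes tested, and with 1-SO under UV-A it was 0.16 against 0.30. The order was the same where 0 genes passed edgeR's test. There it was 0.082 against 0.105 with UV-A in vehicle, 0.066 against 0.08 with 1-SO in the dark and 0.08 against 0.128 with UV-A in 1-S cells. All genes were not matched to the members by read level, so these sizes do not show a smaller response of the members. A change of at least 2-fold was seen for 0 of 30 members with 1-S in the dark, against 15.6% of genes. With 1-S under UV-A it was seen for 1 member (TIMM10B), 3.33% against 15.3% of genes, and with 1-SO under UV-A for 1 member (TIMM23B), 3.33% against 7.47%.

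TIMM23, the channel of the presequence translocase, is read only as a ratio within each round. In round 1 it had 24.9 FPKM with 1-SO under UV-A and 27.6 FPKM with 1-SO in the dark, against 24.0 FPKM in UV-A vehicle and 30.0 FPKM in dark vehicle. In round 2 it had 64.1 FPKM with 1-S under UV-A and 60.9 FPKM with 1-S in the dark, against 71.2 FPKM in UV-A vehicle and 66.8 FPKM in dark vehicle. The log2 ratio of compound to vehicle was 0.05 for 1-SO under UV-A, -0.12 for 1-SO in the dark, -0.15 for 1-S under UV-A and -0.13 for 1-S in the dark, with no test. TIMM23B is a near-identical copy, so reads of the pair may be split between them and both are uncertain. TOMM5 had 18 to 33 reads in a library and TOMM20L at most 12. Exons of AL138752.2 and AL513165.2 cover 18.7% of the exonic bases of TOMM5 on the same strand. Exons of TIMM9 cover 27.9% of those of TOMM20L on the other strand. Both low levels are uncertain to that extent. All exonic bases of TOMM6 overlap another gene, AL365205.1, on the same strand in a GENCODE annotation of GRCh38. The listed 0 of TOMM6 cannot be read as a lack of transcript.

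A list of 24 other import genes, of which 23 were tested, takes in the matrix chaperones, intermembrane oxidoreductases, proteases and membrane insertases. With 1-S in the dark 5 rose and 4 fell by edgeR's test, 39.1% against 30.9% of all genes. With 1-S under UV-A 5 rose and 3 fell, 34.8% against 27.5%. Against the vehicle of round 2 alone 5 rose and 2 fell in the dark, 30.4% against 26.0% of all genes, where DNAJC11 and MTCH2 no longer passed edgeR's likelihood ratio test. Under UV-A 4 rose and 1 fell there, 21.7% against 29.3%, where LONP1, AIFM1 and DNAJC11 no longer passed. DESeq2 called 2 of the 23 that rose and 1 that fell in the dark, where 755 of 12696 genes rose and 832 fell. Under UV-A it called 3 of the 23 that rose and 0 that fell, where 645 of 12696 genes rose and 831 fell. Both comparisons draw on the same fitted vehicle. The genes that rose, in the dark and again under UV-A, were HSPA9, the HSP70 that drives the motor, HSPD1 and HSPE1, the HSP60 and HSP10 of the matrix folding chamber, LONP1, a matrix protease, and GFER, the oxidase partner of CHCHD4. Those that fell under either light were AIFM1, which anchors CHCHD4, DNAJC15, a J-protein of the motor, and DNAJC11, an outer membrane J-protein. MTCH2, an outer membrane insertase, fell in the dark by 0.50 on the log2 scale.

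HSPA9 had 168 FPKM with 1-S in the dark and 188 FPKM with 1-S under UV-A, against 83.0 FPKM in dark vehicle and 90.6 FPKM in UV-A vehicle. The log2 changes were 0.89 ± 0.21 in the dark (edgeR adjusted p = 0.0026) and 1.08 ± 0.21 under UV-A (edgeR adjusted p = 0.00033). HSPD1 had 259 FPKM with 1-S in the dark and 281 FPKM with 1-S under UV-A, against 111 FPKM in dark vehicle and 121 FPKM in UV-A vehicle. Its log2 changes were 1.03 ± 0.23 in the dark and 1.28 ± 0.22 under UV-A (edgeR adjusted p = 0.0011 and 7.9e-05 in that order). The anchor of HSPA9, TIMM44, and its exchange factors GRPEL1 and GRPEL2 were also higher by FPKM in both 1-S libraries than in both vehicle libraries, but their log2 changes of 0.14 to 0.38 did not pass. HSPE1, with 307 and 334 reads with 1-S against 110 and 91 reads with vehicle (dark, then UV-A), had 1.36 ± 0.36 and 2.12 ± 0.35. The annotation lists 26 pseudogenes of HSPE1 and 17 of HSPD1, so both values are uncertain where reads were split among copies. HSPE1 had only 1.66 to 4.38 FPKM in round 1 and 2.12 to 8.86 FPKM in round 2. Exon overlap with other genes was not computed for this list, so reads lost in that way are not accounted for. Without the dark vehicle library of round 2, whose level is then inferred, the changes in the dark were 0.63 for HSPD1, 0.84 for HSPE1 and 0.15 for LONP1, and without the UV-A one LONP1 was at 0.95 under UV-A.

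AIFM1 had 9.37 FPKM with 1-S in the dark and 11.0 FPKM with 1-S under UV-A, against 16.7 FPKM in dark vehicle and 15.0 FPKM in UV-A vehicle. Its log2 change was -0.83 ± 0.19 in the dark (edgeR adjusted p = 0.002) and -0.56 ± 0.20 under UV-A (edgeR adjusted p = 0.034). Against the vehicle of round 2 alone the adjusted p under UV-A was 0.074 by edgeR's likelihood ratio test. In the dark DNAJC15 changed by -0.89 ± 0.23 and DNAJC11 by -0.55 ± 0.20. Under UV-A DNAJC15 changed by -0.74 ± 0.22 and DNAJC11 by -0.54 ± 0.20. 5 of the 9 list genes called with 1-S in the dark rose, so the list did not move in 1 direction.

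With 1-SO under UV-A 0 of the 23 other import genes passed by edgeR's test, against 11.5% of all genes. 6 had an unadjusted p under 0.05, 26.1% against 25.2% of all genes. DESeq2 called 0 of the list, and 489 of 12696 genes. Within 1-SO cells 3 of them fell with UV-A, 13.0% against 9.21% of all genes that fell. These were HSPD1 at -0.75 ± 0.24, DNAJC15 at -0.81 ± 0.24 and IMMP2L, an inner membrane peptidase subunit, at -3.94 ± 0.86. IMMP2L had 6 reads with 1-SO under UV-A and 69 with 1-SO in the dark, next to 8 reads in UV-A vehicle and 68 in dark vehicle of round 1. Both irradiated libraries of round 1 were therefore low. In vehicle cells of round 1 alone the log2 change of IMMP2L with UV-A was -2.89 ± 0.72, so the fall was seen without 1-SO as well. In round 2 it had 67 to 96 reads in all 4 libraries.

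**Figure D4:**
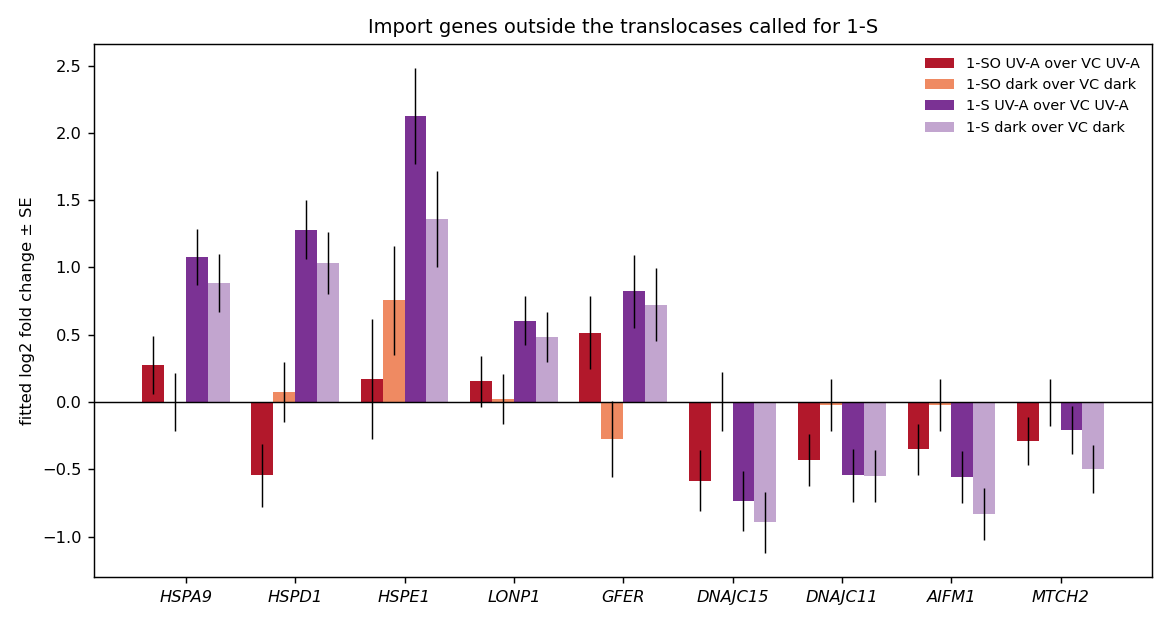
Fitted log2 fold change with its SE for the 9 other import genes that passed the edgeR test with 1-S in the dark, in 4 comparisons of a compound with vehicle under the same light. HSPA9, HSPD1, HSPE1, LONP1 and GFER lie above 0 in both 1-S comparisons, and HSPD1 lies at -0.54 with 1-SO under UV-A.

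The authors' deposited table of each of 5 comparisons listed 0 members with an adjusted p under 0.05. Few genes passed there at all: 62 of 23926 with 1-SO under UV-A, 850 of 58676 with 1-S in the dark and 886 of 58676 with 1-S under UV-A. With 1-SO in the dark and for UV-A in 1-S cells, 0 genes passed. The 0 members are therefore no result about the members. The lowest adjusted p of a member in the authors' deposited table was 0.08 for 1-S in the dark (TOMM20L, 0 reads against 12) and 0.21 for 1-S under UV-A (TIMM10B, log2 change -1.19). Of the other import genes, only HSPE1 with 1-S under UV-A passed in the authors' deposited table, at a log2 change of 1.94 and an adjusted p of 0.0033.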

How the data were processed

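Poly-T selected RNA of MDA-MB-231 cells was sequenced as 8 libraries, per the labels' protocols. The authors' deposited tables hold whole read counts for each gene, which are raw, and FPKM values, which the authors made from those counts, gene length and library total; recomputing them matched within 0.1% for 100.0% of genes in every library. The authors' deposited comparison tables hold log2 fold changes and adjusted p-values, per the file headers. The submitters' processing notes give no roles for the tools and builds they list, among them HTSeq 0.6.1, STAR 2.5, DESeq2, edgeR 3.16.5, hg38 and hg19. Printed gene models are those of round 2 (GRCh38). Exon overlaps were taken from a GENCODE annotation of GRCh38, which is not in all genes the same as the authors' gene models.

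Counts of both rounds were joined over 45341 shared identifiers, and the 12696 genes that reached 1 FPKM in 2 or more libraries were tested with edgeR 4.0.16 (R 4.3.3). The model had terms for round, UV-A in vehicle and each compound group, with TMM factors within rounds, 1 residual and 26 prior degrees of freedom, and a common dispersion equal to a coefficient of variation of 12%. The light responses of vehicle cells in the 2 rounds correlated at r = -0.10 across genes, which are not independent replicates. Round numbers come from the labels. The deviations of dark and UV-A vehicle libraries from their group means correlated at r = 0.86 across genes. Gene models and passage also differed between the rounds, so that value does not show that libraries were paired by culture. P-values were two-sided. Results were recomputed with other scalings, no level filter, DESeq2 1.42.0, limma 3.58.1 on log2(FPKM + 1), each round's own vehicle, no round term and without each vehicle library. Intervals and limits cover counting error or vehicle spread only.

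Members and lists were chosen with earlier results of these data known. Values are given in full for the members that passed 0.05, up to 8 per comparison, and for core subunits. IMMP2L, TIMM9, TIMM8A and other genes that missed the threshold were named after their values were seen.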

Additional observations from a re-analysis of the deposited data

Results flagged for a closer look

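3 of 30 members and 4 of 23 other import genes differed between 1-SO and 1-S in the dark, each relative to vehicle, by edgeR's test of the difference itself. These shares are 10.0% and 17.4%, against 17.2% of all genes. On the log2 scale TOMM7 differed by 0.96 ± 0.28 (SE; adjusted p = 0.019), TIMM13 by 0.94 ± 0.32 (adjusted p = 0.041) and TIMM21 by 0.88 ± 0.30 (adjusted p = 0.045). AIFM1 differed by 0.81 ± 0.25 and DNAJC15 by 0.90 ± 0.29, also higher with 1-SO. HSPA9 differed by -0.89 ± 0.28 and HSPD1 by -0.96 ± 0.30, lower with 1-SO. Under UV-A, HSPD1 differed by -1.82 ± 0.30 (edgeR adjusted p = 0.00039) and HSPE1 by -1.95 ± 0.52 (edgeR adjusted p = 0.031), both lower with 1-SO. Each compound was in a round of its own, so compound, round and passage cannot be told apart in these differences. Against each round's own vehicle, HSPA9 in the dark and HSPD1 under both lights still passed (edgeR likelihood ratio test, adjusted p = 0.017 for HSPA9, 0.0057 for HSPD1 in the dark and 0.0005 for HSPD1 under UV-A), and the other 6 differences did not.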

How the results depend on the processing

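The counts of members called by edgeR rest on the model. With DESeq2, the counts for 1-SO under UV-A, UV-A in 1-SO, 1-S in the dark, 1-S under UV-A and 1-SO against 1-S in the dark were all 0. Without the round term, that is with no replicate block, those 5 counts were 0 as well, and the 14 member results that had passed were all lost. Among them were TIMM21 with 1-S in the dark at -0.70 (edgeR adjusted p = 0.24), MTX3 with 1-SO under UV-A at 0.08 (edgeR adjusted p = 0.96) and TOMM34 with 1-S under UV-A at 0.27 (edgeR adjusted p = 0.68). That setting pools vehicle counts of rounds with different gene models, such as MTX3 at 4799 bases in round 1 and 7916 in round 2. The loss of calls there cannot be told apart from this difference between the rounds. With each round's own vehicle, 0 members were called with 1-SO under UV-A, 1 with 1-S in the dark, 4 with 1-S under UV-A and 0 between the compounds in the dark. With 1-SO under UV-A the count was also 0 under median-of-ratios scaling and with no level filter. Between the compounds in the dark it was 1 under median-of-ratios scaling and 1 with limma. For UV-A in 1-SO the direction of calls depended on the setting: 2 rose and 1 fell with library totals alone, 2 rose and 0 fell with limma, and 0 rose and 2 fell with no level filter. No called member or other import gene changed sign under any setting tried. The fits without a vehicle library add little to that, since most repeat the comparison with each round's own vehicle by construction. The comparisons with 0 members called by edgeR stayed at 0 in every setting.

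Scaling by library totals alone moved the median of all genes by 0.10 with 1-SO under UV-A and by 0.13 for UV-A in 1-SO. Over all genes 567 rose and 894 fell with 1-SO under UV-A, but 1008 rose and 739 fell under that scaling and 777 rose and 597 fell with limma. For UV-A in 1-SO, 707 rose and 1169 fell, against 1365 and 931 under library totals and 1092 and 795 with limma. DESeq2 called 133 and 356 genes with 1-SO under UV-A (rose, then fell), 174 and 420 for UV-A in 1-SO, 755 and 832 with 1-S in the dark and 645 and 831 with 1-S under UV-A. Without the round term 18 rose with 1-S in the dark, 15 rose with 1-S under UV-A, and 0 passed elsewhere. Leaving out a vehicle library leaves no residual degree of freedom and so gives values with no test. For a compound against vehicle, such a fit returns the ratio to the round's own vehicle of that light by construction. Only the fit without that vehicle library can differ. A change with UV-A within 1-SO or 1-S cells cannot move at all. The ranges are therefore no check apart from the comparison with each round's own vehicle. Over those 4 fits, log2 changes with 1-S in the dark ran from -1.15 to -0.69 for TIMM21 and from -0.73 to -0.53 for SAMM50. TOMM34 with 1-S under UV-A ran from 0.46 to 0.73, TIMM10B from -1.13 to -1.09 and MTX3 with 1-SO under UV-A from 0.52 to 0.74. LONP1 with 1-S in the dark was at 0.15 without the dark vehicle of round 2.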
